A study of Ovis aries with 16 samples.

Results

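The genes described here run the autophagy and lysosomal degradation pathway: the autophagy core (ATG) genes, the cathepsin proteases, the lysosome-associated membrane proteins LAMP1 to LAMP3, and the subunits of the vacuolar proton pump (V-ATPase). Members were chosen by symbol (names beginning ATG and a digit, CTS and 1 letter, LAMP1 to LAMP3, ATP6V0, ATP6V1 or ATP6AP) and by a mean normalized count of at least 10 in liver or in muscle. Of 59 matching symbols, 54 were kept, out of 28524 rows in the table and 16718 rows with such a mean. They comprised 17 autophagy core genes and 37 lysosomal genes, the latter made up of 13 cathepsins, 3 LAMPs, 9 subunits of the membrane part of the pump (V0), 10 of its cytosolic part (V1) and 2 accessory proteins. The rule itself used no difference between groups, but it was set with earlier results of these data known. Just outside the minimum lay ATP6V1E2 (mean 9.18 in muscle), followed by ATP6AP1L, ATP6V1FNB, ATP6V1G3 and ATP6V1G2 at 4.62 to 0.722 in their higher tissue, and just inside lay ATP6V0D2 (13.4 in liver) and ATG9B (14.99 in muscle).

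RNA sequencing was done on liver (left lobe tip) and skeletal muscle (vastus lateralis) of the same 8 female Suffolk sheep. This gave 4 groups: control liver, BPA liver, control muscle and BPA muscle, with 4 libraries each, every library in a group from a different animal (controls 902, 908, 924 and 928; BPA 910, 918, 977 and 984). The dams of the BPA animals had been given bisphenol A, a plasticizer with oestrogen-like activity, at 0.5 mg/kg/day under the skin in corn oil over gestation days 30 to 90, and the control dams corn oil alone. Tissue was taken from all offspring when about 21 months old, fasted for 48 hours, in the late follicular phase, 24 hours after the second of a pair of prostaglandin injections, so the fast and the synchronized cycle were common to every group. The labels name no other genotype, allele or agent. What was compared is liver against muscle, BPA against control in each tissue, and whether the BPA difference itself differed between the tissues.

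Macroautophagy encloses cytoplasm in a double membrane, the autophagosome, which then fuses with a lysosome. The core ATG proteins start, lengthen and close that membrane: ATG13, ATG101 and ATG14 belong to the initiating kinase and lipid kinase complexes, ATG9 and ATG2 supply lipid, and ATG3, ATG5, ATG7, ATG10, ATG12, ATG16L and the ATG4 proteases serve its conjugation reactions. Inside the lysosome, which the V-ATPase acidifies and the LAMPs line, cathepsins cut the delivered protein, and fasting is a classical trigger of the pathway in both liver and muscle.

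The values are read counts divided by a size factor per library (normalized counts), which are not corrected for gene length, so that levels are compared between libraries and never between genes. Libraries held 4.39 to 19.28 M recovered reads in liver and 15.15 to 28.54 M in muscle (M, units of 1e6). The labelled tissues carried their defining genes: all 11 hepatocyte markers tested were higher in liver and all 11 skeletal muscle markers higher in muscle. The liver libraries were not alike within groups. Relative to the mean of the 8 livers, on the log2 scale, the median of 11 hepatocyte markers was -3.05 in control liver 902 and 1.21 to 1.61 in the other controls, and the median of 10 fibroblast and stellate markers was 4.23 and -0.14 to 0.32. BPA livers 918, 977 and 984 had ribosomal protein gene medians of -1.35, -1.67 and -2.04, whereas BPA liver 910 lay at 1.22 and controls 908, 924 and 928 at 1.25 to 1.40. The counts of calls in liver are therefore repeated without 910 and without 902, and the members the liver results turn on are given library by library.

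**Figure D1:**
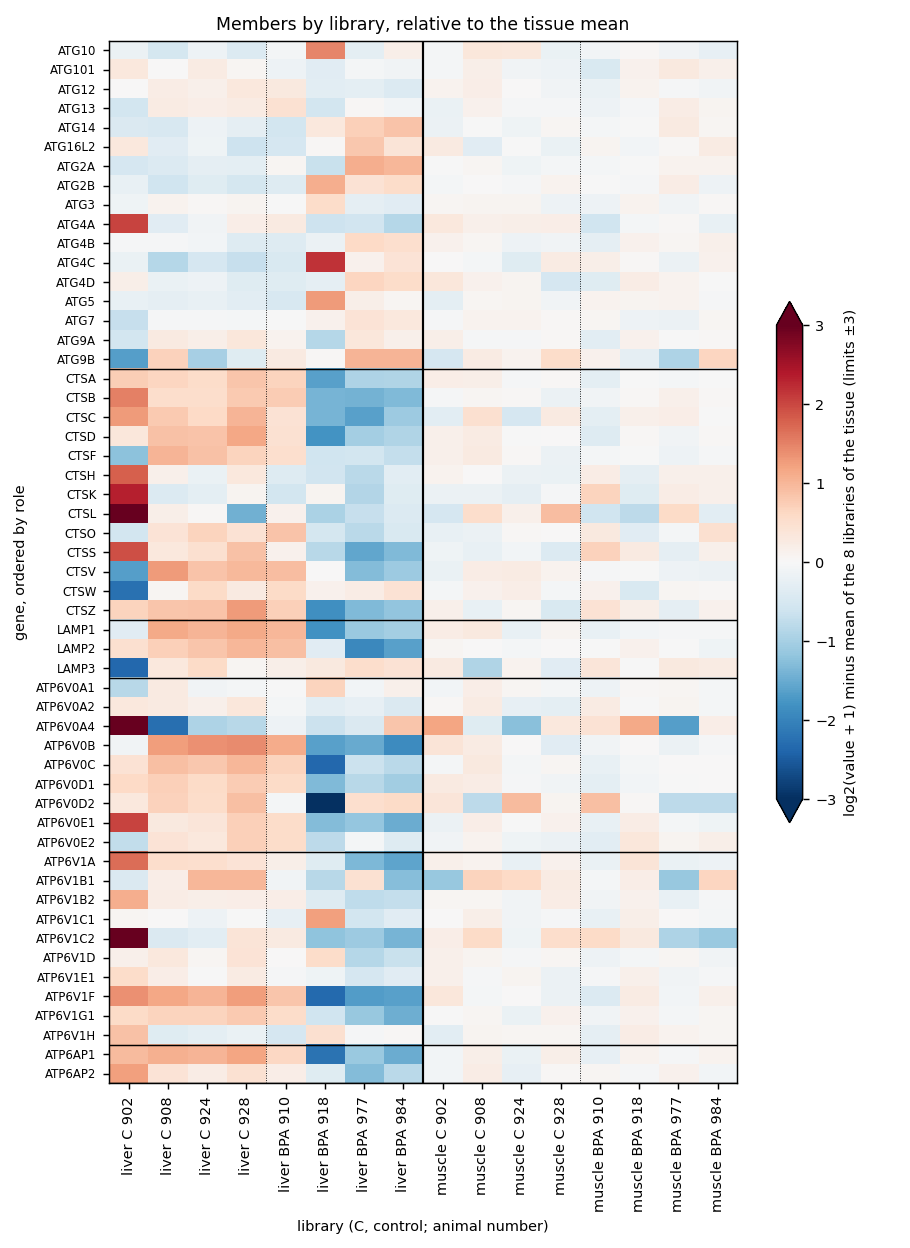
Heat map of the 54 members (rows, by role) in the 16 libraries (columns), coloured by log2(normalized count + 1) minus the mean of the 8 libraries of the same tissue. Most cathepsin, LAMP and pump rows are red in the 4 control livers and BPA liver 910 and blue in BPA livers 918, 977 and 984, most autophagy core rows are pale, and the muscle columns are nearly flat. Control liver 902 is an exception for the LAMPs, with a median of -0.35. Of its 37 lysosomal genes, 17 lay below every other control liver and 16 above.

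Most members differed between liver and muscle. Between liver and muscle, 37 of 53 tested members passed an adjusted p of 0.05 (limma, a linear model with moderated variances, on log2(value + 1), 4 groups in 1 fit, Benjamini-Hochberg over 15995 genes), 22 higher in liver (all genes 36.1%) and 15 higher in muscle (all genes 35.3%). That is 69.8% of the members, and 71.4% of all genes tested passed, so the members differed between the tissues about as often as genes in general. Groups of 8 libraries that did not overlap at all were found for 12 of the 53 members, and for 41.6% of all genes. Autophagy core genes were split, with 7 of 17 higher in liver, 8 lower and a median log2 difference of -0.41, while 15 of 36 lysosomal genes were higher, 7 lower and the median was 0.20 (median of all genes 0.06). With the animal as a replicate block 35 passed (all genes 69.3%). Direction was the same for all 37 called members under TMM, DESeq2 and edgeR scaling, although edgeR shifted the median of all genes by 0.15. In whole tissue, fewer cells of a type and less RNA per cell cannot be told apart.

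Among the autophagy core genes, the largest difference was in ATG9A, the lipid scramblase carried on the vesicles that seed the autophagosome. Its lowest, median and highest normalized counts were 302, 612 and 695 in liver and 2557, 3190.2 and 3597 in muscle. Every muscle lay above every liver, with log2 difference -2.54, SE 0.18, adjusted p = 2.32e-09. ATG101, a subunit of the initiating ULK kinase complex, measured 97.9, 123 and 155 in liver and 236, 335 and 401 in muscle (log2 difference -1.39, SE 0.13, adjusted p = 9.18e-08), and its partner ATG13 516, 832 and 1042 and 1085, 1209 and 1457 (log2 difference -0.70, SE 0.16, adjusted p = 0.000985). Both were likewise without overlap. The cysteine proteases ATG4A and ATG4D were lower in liver in 8 of 8 animals. ATG4A had 75.6, 118 and 559.7 in liver and 373, 609 and 711 in muscle (log2 difference -2.04, SE 0.28, adjusted p = 6.76e-06), where the liver maximum belongs to control 902 and the other 7 livers reached at most 164. ATG4D had 131, 149 and 266 and 294, 444 and 522 (log2 difference -1.29, SE 0.18, adjusted p = 1.04e-05).

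Other core genes ran the opposite way. ATG16L2, a paralogue of the ATG16L1 scaffold, measured 219, 324 and 591 in liver and 74.2, 94.8 and 113 in muscle, all livers above all muscles (log2 difference 1.82, SE 0.19, adjusted p = 2.68e-07). ATG7, the E1-like activating enzyme of both conjugation systems, measured 320.3, 509.8 and 689.9 and 229, 269 and 281 (log2 difference 0.995, SE 0.13, adjusted p = 2.98e-06), and ATG5, the conjugate partner of ATG12, 248, 295 and 833 and 156, 199.6 and 207 (log2 difference 0.85, SE 0.19, adjusted p = 0.000787). The lipid transfer protein gene ATG2A had 1528, 2005 and 5142 in liver and 1118, 1217 and 1318 in muscle (log2 difference 0.99, SE 0.21, adjusted p = 0.000453), again without overlap, while its paralogue ATG2B had a log2 difference of 0.00 (SE 0.17). ATG12, the ubiquitin-like protein itself, was lower in liver in 7 of 8 animals, at 209, 294 and 344 against 329.8, 372 and 433 (log2 difference -0.44, SE 0.12, adjusted p = 0.00469). The conjugation genes did not share a direction in this contrast: ATG7, ATG5, ATG10 (0.70) and ATG3 (0.32) were higher in liver, ATG12 and ATG4B (-0.41) lower. Also called were ATG4C (0.73) and ATG14 (-0.55), and ATG9B (-0.73, adjusted p = 0.0759) was not. The call of ATG3 (adjusted p = 0.0435) ended with the animal as a replicate block (adjusted p = 0.0751) and without any of BPA 910 and 977 and controls 908, 924 and 928 (0.0530 to 0.131). Those of ATG4B and ATG4C also ended without some single animals, BPA 918 or control 908 or 928 for ATG4B (0.0566 to 0.0721) and BPA 984 or control 902 or 924 for ATG4C (0.0515 to 0.0820). ATG16L1 was found under a locus name alone and is not a member by the rule.

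All 7 cathepsins that passed over both treatments together were higher in liver. CTSL, an endopeptidase of the lysosome, had a mean under 10 in muscle, with 18.8, 46.8 and 477 in liver and 3.84, 6.94 and 14.7 in muscle (log2 difference 2.70, SE 0.49, adjusted p = 0.000135). CTSZ, a carboxypeptidase, had 254, 1474 and 2194 in liver and 156, 229 and 293 in muscle (log2 difference 2.07, SE 0.28, adjusted p = 5.73e-06), and overlapped at the low end. CTSO, a papain family member, measured 166, 296 and 524 and 57.6, 71.5 and 101, without overlap (log2 difference 1.98, SE 0.24, adjusted p = 1.57e-06). CTSS, which is abundant in macrophages and other antigen-presenting cells, measured 122, 426 and 1393 and 85.0, 105 and 182, higher in liver in 8 of 8 animals (log2 difference 1.68, SE 0.26, adjusted p = 2.87e-05). The 14 macrophage markers summed to 2573 to 12915 normalized counts in liver and 1437 to 2740 in muscle, with none at 0 in either tissue, and their part in the CTSS difference was not tested. CTSV (log2 difference 1.60), CTSA (0.75) and CTSH (0.65) were the others called. CTSV and CTSL are close relatives, and how the counting assigned reads between them is not given in the sources used here. CTSB, CTSC, CTSD, CTSF, CTSK and CTSW were not called, with log2 differences from -0.47 to 0.49. Of the LAMPs, LAMP3 (0.82, adjusted p = 0.0444) was called and LAMP2 (0.49) and LAMP1 (-0.37) were not. The LAMP3 call ended with the animal as a replicate block (adjusted p = 0.0750) and without any animal other than 902 (0.0629 to 0.169).

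The proton pump genes differed by subunit and isoform. Of 20 tested, 14 passed between the tissues (all genes 71.4%), 7 higher in liver and 7 lower. Subunit B, the nucleotide-binding partner of the catalytic subunit A, has 2 genes, and they ran in opposite directions. ATP6V1B1, the isoform known from acid-secreting epithelia, measured 22.7, 58.7 and 114 in liver and 0, 1.59 and 2.53 in muscle (log2 difference 4.70, SE 0.38, adjusted p = 1.49e-08), its muscle values being close to 0. ATP6V1B2, the widely expressed isoform, measured 177, 341 and 637 and 511, 603 and 704, lower in liver in 7 of 8 animals (log2 difference -0.99, SE 0.17, adjusted p = 6.89e-05). Of the a subunits of the membrane part that are members by the rule, ATP6V0A1 and ATP6V0A2 were higher in liver. ATP6V0A1 measured 1185, 2047 and 3333 and 900.3, 999 and 1148 without overlap (log2 difference 1.06, SE 0.16, adjusted p = 1.65e-05), and ATP6V0A2 184, 259.6 and 316 and 128, 159 and 187 (log2 difference 0.67, SE 0.12, adjusted p = 0.000125). ATP6V0A4 had a log2 difference of -0.53 (SE 0.77) and was not called. The subunit C gene ATP6V1C1 was lower in liver (log2 difference -1.002, SE 0.20, adjusted p = 0.000378), and ATP6V1C2 was higher (1.31), a call that ended without control 902 (log2 difference 0.80, adjusted p = 0.0522) and without any 1 of 4 other animals (adjusted p 0.0512 to 0.0840). The stalk subunits ATP6V1E1 (log2 difference -0.60, SE 0.12, adjusted p = 0.000322) and ATP6V1F (log2 difference -1.41, SE 0.33, adjusted p = 0.00123) were lower in liver, in 8 and 7 of 8 animals. ATP6V0D2, the d subunit isoform known from osteoclasts, had a mean of 13.4 in liver and 0.922 in muscle and was under the minimum for this test. ATP6V0D1 (-0.59, adjusted p = 0.0208) was called, and the call ended without any of BPA 918, 977 and 984 or control 908 (adjusted p 0.0522 to 0.0730). The remaining calls were the catalytic subunit gene ATP6V1A (0.75), ATP6V0E2 (0.87) and ATP6AP2 (0.91), higher in liver, and ATP6V0C (-0.97) and ATP6AP1 (-0.91), lower.

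**Figure D2:**
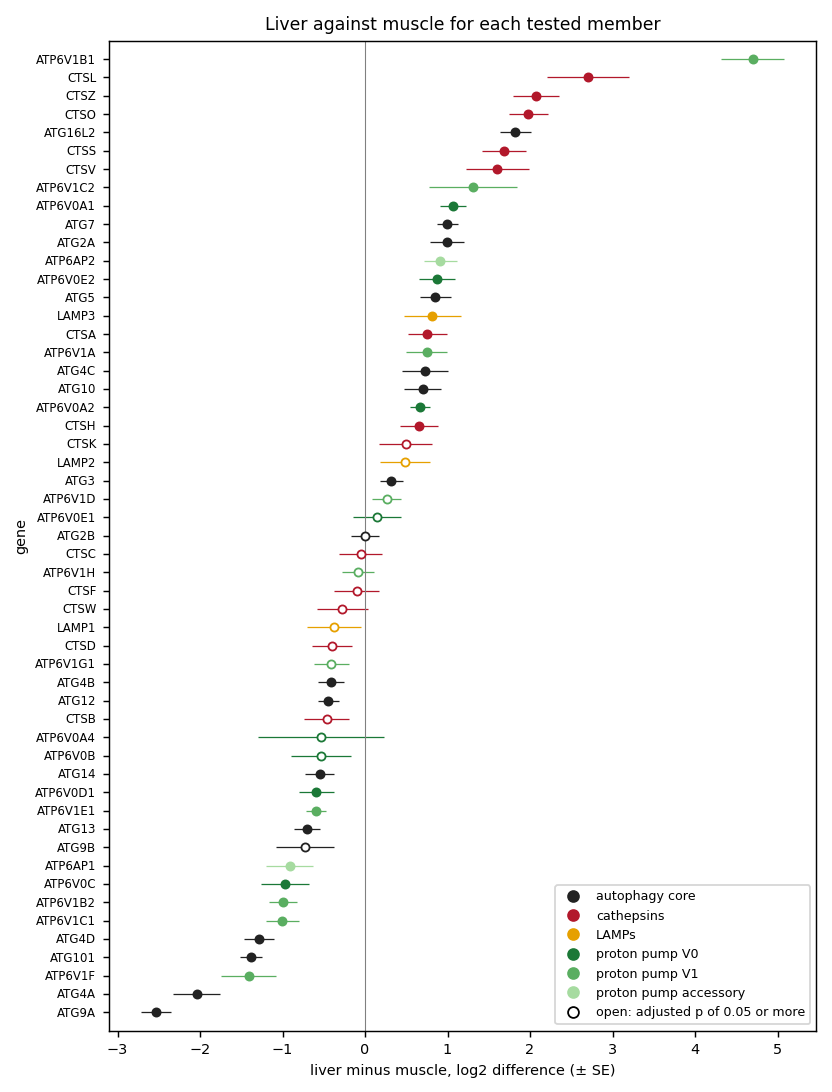
Log2 difference between liver and muscle (x axis, with SE from limma, 16 libraries) for the 53 tested members, sorted and coloured by role, open points not past the threshold. The red cathepsin points that are filled all lie to the right of 0, whereas black autophagy core points lie on both sides of 0, from -2.54 for ATG9A to 1.82 for ATG16L2.

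Split by treatment, the tissue difference of the lysosomal genes had different medians. In the 4 control animals the median log2 difference between liver and muscle was 0.77 over the 36 lysosomal genes and -0.43 over the 17 core genes. Of the lysosomal genes 15 were called higher in liver and 2 lower (all genes 4631 and 4362 of 15995). In the 4 BPA animals the median was -0.11 over the lysosomal genes and -0.04 over the core genes. There 6 lysosomal genes were called higher in liver and 12 lower (all genes 5186 and 5264 of 15995). Among all members 28 passed in controls (all genes 56.2%) and 30 in BPA animals (all genes 65.3%). Single genes differed between the treatments in size or sign. ATP6V1F had a log2 difference of -0.24 in controls and -2.58 in BPA animals, ATP6AP1, a pump accessory protein, 0.12 and -1.95, and CTSC, which activates granule proteases, 0.87 and -0.98. CTSS had 2.79 and 0.57, and CTSZ 3.10 and 1.05. Of the 13 cathepsins, 7 were called higher in liver and 0 lower in controls. In BPA animals 4 were called higher and 3 lower, the lower ones being CTSB (-1.33), CTSC and CTSD (-1.11). ATG9A, by contrast, had -2.52 and -2.56, and ATG101 -1.19 and -1.58. The test of that difference is the comparison of BPA effects between tissues, given below.

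In liver, lysosomal genes had lower estimates in the BPA group and autophagy core genes did not, but no member passed the test. Of 53 members tested 0 passed (all genes 0.0%, 15689 tested), with limma adjusted p from 0.256 to 0.981. At an unadjusted p under 0.05 there were 20 members lower and 1 higher, 39.6% of the members compared with 18.1% of all genes (10.3% lower, 7.8% higher). The groups did not overlap for 12 of 53 members, 11 of them lower in BPA, compared with 7.61% of all genes (3.98% lower). Estimates were negative for 33 of 37 lysosomal genes (all genes 50.7%), with a median log2 difference of -1.15. They were positive for 10 of 16 core genes (all genes 49.3%), with a median of 0.32 (median of all genes -0.01). edgeR's quasi-likelihood test called 0 members. DESeq2 called 0 of the 47 members to which it gave an adjusted p, and 196 of all genes (1.34%).

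Library by library, the lysosomal median relative to the mean of the 8 livers was 0.56, 0.41, 0.54 and 0.71 in control livers 902, 908, 924 and 928. It was 0.43 in BPA liver 910, and -0.65, -0.86 and -0.82 in BPA livers 918, 977 and 984. BPA liver 910 thus lay inside the control range. Control liver 902 had a median like the other controls, but its single genes did not. Of its 37 lysosomal genes, 17 lay below every other control and 16 above. The core median was -0.19, -0.24, -0.12 and -0.28 in controls and -0.11, -0.08, 0.27 and 0.25 in BPA livers. The core minus the lysosomal median was -0.76, -0.65, -0.66 and -0.99 in controls and -0.54, 0.57, 1.13 and 1.06 in BPA livers, so the groups did not overlap on this difference and 910 was nearest to the controls. Other measures ordered the livers in a similar way: the macrophage marker median was 1.39, 0.56, 0.37 and 0.87 in controls and 0.23, -1.83, -1.12 and -0.52 in BPA livers. The ribosomal protein median was 0.04, 1.25, 1.33 and 1.40, and then 1.22, -1.35, -1.67 and -2.04. The summed macrophage markers ranged from 9165 to 12915 in control and from 2573 to 8708 in BPA livers, with none of the 14 genes at 0. Hepatocyte marker medians were -3.05, 1.21, 1.34 and 1.61 in controls and 1.36, -0.68, -0.92 and -0.95 in BPA livers, where 902 stood apart from the other controls. Fibroblast and stellate medians were 4.23, 0.12, -0.14 and 0.32, and then -0.02, -1.25, -1.61 and -0.70, and endothelial medians (7 genes) 0.40, 0.27, 0.46 and 0.61, and then 0.23, -0.78, -0.48 and -0.55. The summed markers ranged from 59966 to 1468810 in control and 276511 to 1362970 in BPA livers for hepatocytes, from 6270.0 to 118856 and 2738 to 5899.8 for fibroblasts, and from 3629 to 6145 and 2030.0 to 4207 for endothelium, with none at 0. What part any of these has in the lysosomal difference was not tested.

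**Figure D3:**
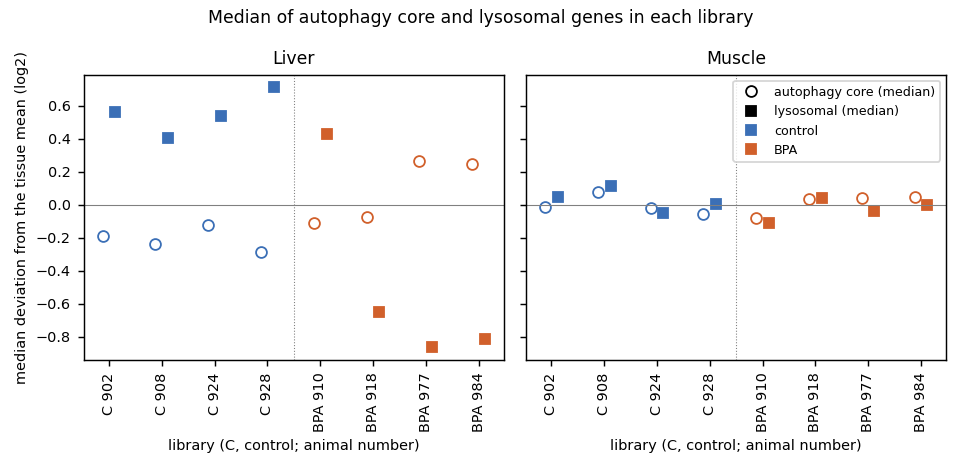
Median deviation from the tissue mean (log2, y axis) of the autophagy core (open circles) and the lysosomal genes (filled squares) in each library, controls in blue and BPA in orange, with liver and muscle on the same scale. In liver the squares lie at 0.41 to 0.71 in controls and 0.43 in BPA 910, and at -0.65 to -0.86 in the other BPA livers, while the muscle points lie close to 0, between -0.11 and 0.11.

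Cathepsins and LAMPs made up 9 of the 20 members lower at an unadjusted p under 0.05, with 7 of 13 cathepsins and 2 of 3 LAMPs (all genes 10.3%). Library values are given in the order 902, 908, 924 and 928 for controls and 910, 918, 977 and 984 for BPA. CTSC measured 2759, 1950.0, 1713 and 2326 in control livers and 1538, 435, 371 and 535 in BPA livers. Every BPA liver lay under every control, 910 only just (log2 difference -1.83, SE 0.45, adjusted p = 0.256). CTSS measured 1393, 452, 505 and 670.4 and 400.5, 204, 122 and 144, also without overlap (log2 difference -1.80, SE 0.47, adjusted p = 0.256), with 902 far above the other controls. Its direct neighbour in the RefSeq annotation (ARS-UI_Ramb_v3.0), CTSK, a collagen-degrading protease, measured 2203, 326, 353 and 462 and 294, 458, 236 and 336, which overlapped (log2 difference -0.86, SE 0.57, adjusted p = 0.408). CTSZ measured 1447, 1617, 1649 and 2194 and 1502, 254, 361 and 398 (log2 difference -1.82, SE 0.51, adjusted p = 0.256): 910 lay among the controls and the remaining BPA livers well below them. CTSB and CTSD, major cysteine and aspartic proteases of the lysosome, had the same arrangement. CTSB was 5749, 2936, 2912 and 3496 in controls and 3446, 772, 758 and 809.7 in BPA livers (log2 difference -1.68, SE 0.52, adjusted p = 0.256), CTSD 4539, 6600.1, 6484 and 7956 and 4930.0, 1033, 1763 and 1899 (log2 difference -1.63, SE 0.48, adjusted p = 0.256). LAMP1, a major glycoprotein of the lysosomal membrane, measured 2305, 6457, 5926 and 6445 and 5868, 833, 1347 and 1451 (log2 difference -1.47, SE 0.62, adjusted p = 0.266). Control 902 was low and BPA 910 high for its group. LAMP2, an isoform of which is the receptor of chaperone-mediated autophagy, had log2 difference -1.51, SE 0.57, adjusted p = 0.258, and CTSW (0.67) and LAMP3 (0.72) were the only members of the 2 families with positive estimates.

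Of 21 pump genes, 19 had negative estimates in BPA livers (all genes 50.7%) and 11 were lower at an unadjusted p under 0.05 (all genes 10.3%). ATP6AP1 measured 643, 697, 673 and 751 in controls and 514, 70.8, 152 and 118 in BPA livers (log2 difference -2.10, SE 0.52, adjusted p = 0.256). The controls spanned a narrow range, 910 lay below them and the other BPA livers lower again. ATP6V1F, a small subunit of the central stalk, measured 256, 219, 198 and 234 and 177, 18.7, 29.9 and 31.1 (log2 difference -2.39, SE 0.60, adjusted p = 0.256), the most negative estimate among the members. ATP6V0B and ATP6V0C, both proteolipids of the rotating membrane ring, measured 299.6, 767, 829.6 and 856 and 697, 104, 112 and 85.7 (log2 difference -1.96, SE 0.66, adjusted p = 0.256), and 571, 793, 744 and 844 and 671, 81.2, 271 and 243 (log2 difference -1.57, SE 0.54, adjusted p = 0.256). In both, BPA livers 918, 977 and 984 lay below all controls and 910 did not. ATP6V1A, the catalytic subunit, measured 1033, 471, 459.9 and 434 and 365, 252, 127 and 108 (log2 difference -1.56, SE 0.45, adjusted p = 0.256), without overlap. Not every subunit shared the direction: ATP6V0A1 (log2 difference 0.36, SE 0.34, adjusted p = 0.56) and ATP6V1C1 (log2 difference 0.04, SE 0.39, adjusted p = 0.96) had positive estimates, and ATP6V1H, a regulatory subunit, had -0.02 (SE 0.36). ATP6V1C1 was 232, 224, 202 and 222 in controls and 187, 521, 151 and 177 in BPA livers, where 918 alone was high. ATP6V0A4 and ATP6V1C2 were high in 1 control, 902, at 243 and 433, against at most 19.3 and 39.6 in the other livers.

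The autophagy core genes with the smallest p in the higher direction were ATG2B, ATG4C, ATG14, ATG2A and ATG7. ATG2B measured 680.3, 526, 612 and 551 in control and 609.9, 1689, 1075 and 1172 in BPA livers (log2 difference 0.86, SE 0.34, adjusted p = 0.258), and ATG14, the subunit that directs the lipid kinase to autophagosomes, 173, 167, 210.4 and 193 and 158, 294, 384 and 427 (log2 difference 0.67, SE 0.34, adjusted p = 0.308). In both genes 918, 977 and 984 lay above all controls and 910 among or below them. ATG4C measured 145, 91.5, 117 and 103 and 122, 749.5, 182 and 223 (log2 difference 1.13, SE 0.51, adjusted p = 0.276), and its estimate rests largely on 918. ATG2A measured 1720.4, 1826, 2025 and 1985 and 2533, 1528, 5142 and 4839.8 (log2 difference 0.73, SE 0.42, adjusted p = 0.349), with 977 and 984 high and 918 below every control. ATG7 measured 320.3, 507, 508 and 499 and 512, 566, 689.9 and 648, the only core gene with all BPA livers above all controls (log2 difference 0.41, SE 0.27, adjusted p = 0.396). ATG101 was the only core gene with all BPA livers below all controls, at 155, 126, 147 and 130.2 and 111, 97.9, 119.8 and 115 (log2 difference -0.33, SE 0.24, adjusted p = 0.458). ATG4A had the most negative core estimate (log2 difference -0.89, SE 0.52, adjusted p = 0.358), and its control group was 559.7, 109, 127 and 158, where 902 again stood alone.

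Leaving out BPA liver 910 changed the number of calls. Without it, limma called 20 of 53 members, 18 lysosomal genes lower and 2 core genes higher, and 16.5% of all genes (9.15% lower, 7.34% higher). The lower ones were CTSA, CTSB, CTSC, CTSD, CTSS, CTSZ, LAMP1, LAMP2, ATP6AP1, ATP6AP2, ATP6V0B, ATP6V0C, ATP6V0D1, ATP6V0E1, ATP6V1A, ATP6V1B2, ATP6V1F and ATP6V1G1, with log2 differences from -1.04 to -3.07. The higher ones were ATG2B (1.12) and ATG14 (0.97). BPA 910 was the BPA liver nearest to the controls on these same values, so lower p-values without it were likely beforehand. The calls without 910 are therefore no separate support for a BPA difference. The same holds for every count and adjusted p without 910 given below. Leaving out control 902 left 0 called, with medians of -1.22 for lysosomal and 0.38 for core genes. A term for library depth (under or over 15 M reads) gave 0 calls and medians of -0.90 and 0.20. Control 902 (4.39 M) and BPA 918, 977 and 984 (4.66, 7.27 and 10.64 M) lay under 15 M. BPA 910 (17.92 M) lay over it with controls 908, 924 and 928 (18.55, 17.93 and 19.28 M). Depth class thus divided BPA 910 from the other BPA livers and largely coincided with treatment. Telling depth from treatment with this term rests on control 902 and BPA 910 alone. Both stood apart from their groups in other ways, so the term cannot reliably separate the effects. Array weights called 39 members (all genes 61.1%), and all 4 groups in 1 fit called 21 (all genes 14.7%).

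**Figure D4:**
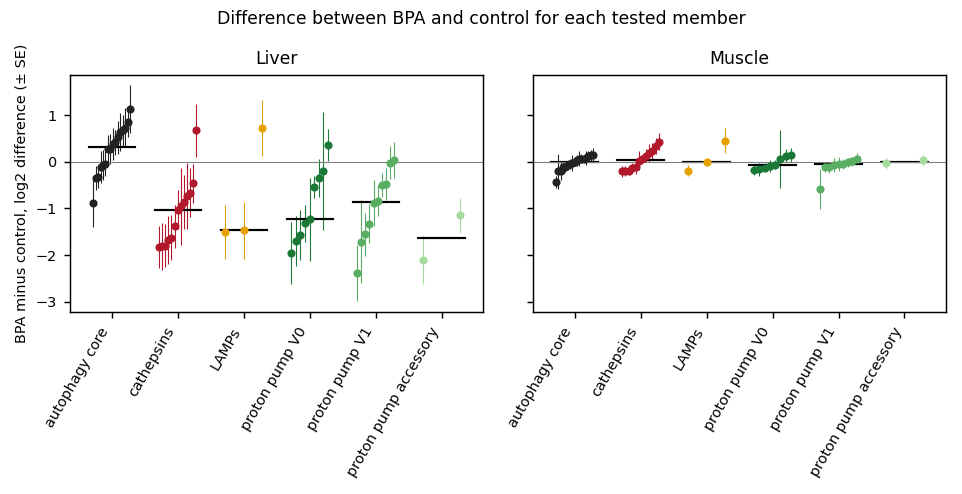
Log2 difference between BPA and control (y axis, with SE from limma, 4 against 4 libraries) for each tested member by role, in liver and in muscle on the same scale, with a bar at the median of each role. In liver the bars lie at -0.86 or lower for every lysosomal role and at 0.32 for the autophagy core, and in muscle all bars lie close to 0.

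**Figure D5:**
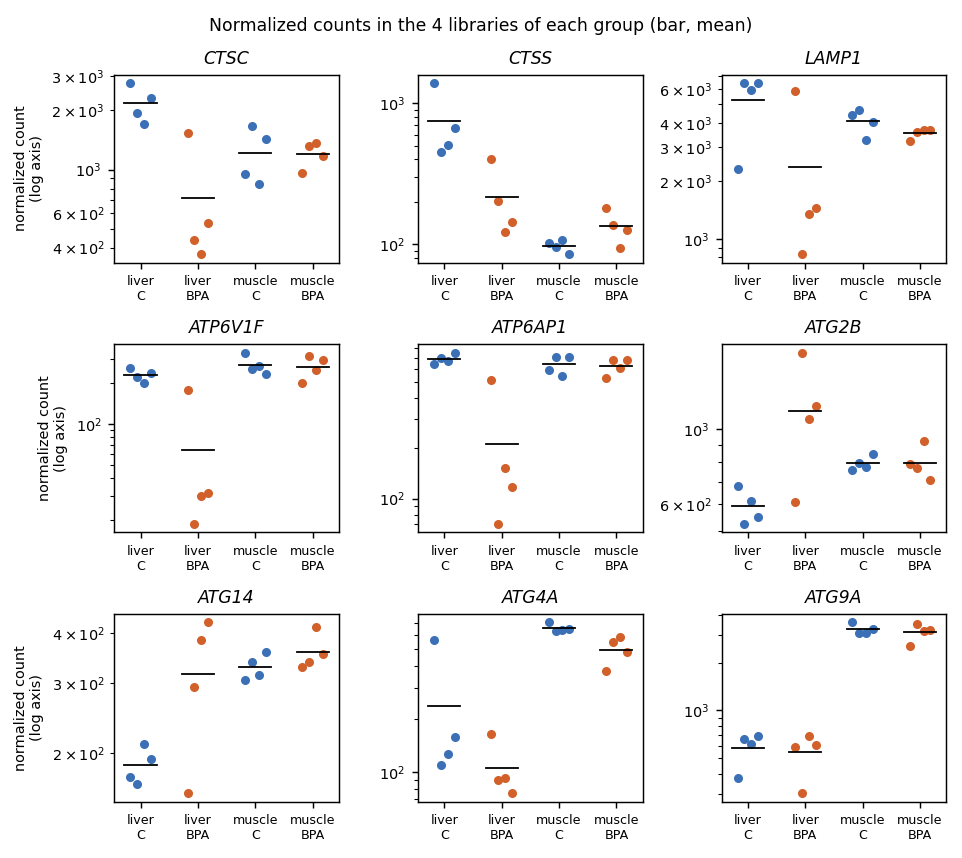
Normalized counts (log axis) of 9 members picked after their values were seen, 1 point per library and a bar at the group mean. In CTSC, CTSS, ATP6V1F and ATP6AP1 the BPA livers lie below the controls with 1 BPA liver (910) nearest to them, and in ATG9A and ATG4A nearly all livers lie below all muscles.

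In muscle the core and the lysosomal genes lay close together. No member of 51 tested passed, against 0.129% of all genes (19 of 14706). At an unadjusted p under 0.05 there were 2 members, 3.92% compared with 7.77% of all genes, and the groups did not overlap for 1 member, compared with 4.53% of all genes. Median log2 differences were 0.00 for the core and -0.04 for the lysosomal genes. ATG4A measured 711, 634, 642 and 653 in control and 373, 546, 584 and 483 in BPA muscles, every BPA muscle below every control (log2 difference -0.43, SE 0.13, adjusted p = 0.38), a value that passed with array weights (adjusted p = 0.0284, all genes 2.56%). CTSS measured 102, 96.1, 107 and 85.0 and 182, 137, 94.0 and 126 (log2 difference 0.43, SE 0.18, adjusted p = 0.606), with 910 highest and 977 among the controls. The macrophage marker median in muscle was also highest in 910 (0.58, other muscles -0.32 to 0.23), and its part was not tested. CTSK, CTSZ, LAMP3 and ATG14 had the next smallest p among positive estimates (0.12 to 0.45 on the log2 scale) and CTSA, CTSD, CTSV and LAMP1 among negative ones (-0.19 to -0.21), with adjusted p from 0.685 to 0.807. Precision was not the same in the tissues: the median SE of the members was 0.42 in liver and 0.12 in muscle, so differences were estimated more narrowly in muscle.

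The BPA difference in liver minus that in muscle was tested for 50 members, and 0 passed (all genes 0.0%, 13677 tested, smallest adjusted p of a member 0.195). At an unadjusted p under 0.05 there were 19 members, 18 with the more negative difference in liver, which is 38.0% of the members compared with 19.5% of all genes (11.8% more negative). Medians were -1.17 for 34 lysosomal and 0.27 for 16 core genes (all genes -0.05). CTSS had the smallest p (log2 difference -2.22, SE 0.53, adjusted p = 0.195), and CTSZ (log2 difference -2.05, SE 0.56, adjusted p = 0.195), ATP6AP1 (log2 difference -2.07, SE 0.57, adjusted p = 0.195), CTSC (log2 difference -1.86, SE 0.51, adjusted p = 0.195) and ATP6V1F (log2 difference -2.35, SE 0.66, adjusted p = 0.195) followed. In the opposite direction came ATG2B (log2 difference 0.85, SE 0.33, adjusted p = 0.216), ATG7 (log2 difference 0.52, SE 0.25, adjusted p = 0.263), ATG10, an E2-like enzyme (0.84), ATG4C (1.04) and ATG2A (0.66). Without animal 910, limma called 20 members (all genes 22.1%), 18 lysosomal and 2 core. DESeq2 called CTSS alone among the members (adjusted p = 0.0266, all genes 1.13%), array weights called 37 (all genes 60.3%), and with the animal as a replicate block 0 passed.

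The rest of the pathway, taken from lists of other genes, was read in the same comparisons. Between liver and muscle, genes of nutrient sensing by mTORC1 and of the TFEB family of lysosomal transcription factors were lower in liver for 21 of 29 and higher for 4, where 35.3% of all genes were lower and 36.1% higher. SESN1, a stress-induced inhibitor of mTORC1, had log2 difference -3.49, SE 0.22, adjusted p = 5.39e-10, TFEB log2 difference -3.12, SE 0.23, adjusted p = 3.14e-09 and MITF log2 difference -2.57, SE 0.18, adjusted p = 2.15e-09. Autophagy receptors were lower in liver for 12 of 18 and higher for 2, among them the mitophagy receptor BNIP3 (log2 difference -3.82, SE 0.17, adjusted p = 6.31e-12) and RETREG1, a receptor for the endoplasmic reticulum (log2 difference -4.19, SE 0.30, adjusted p = 3.34e-09). Lysosomal hydrolases outside the cathepsins went the other way, with 19 of 34 higher in liver and 3 lower, including the glucuronidase gene GUSB (log2 difference 3.33, SE 0.30, adjusted p = 4.37e-08). Of 16 initiation and lipid kinase genes 6 were higher and 5 lower in liver, and WIPI1, which reads the lipid made by that kinase, had log2 difference -2.44, SE 0.19, adjusted p = 7.65e-09. Of 27 genes of the lysosomal membrane and of sorting to it 8 were higher and 4 lower. Of 12 genes listed for pump assembly and regulation 5 were higher and 4 lower, and of 16 genes of fusion with the lysosome 3 and 4. The pump list also holds TCIRG1 and RNASEK, which encode pump subunits but have symbols outside the rule.

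In liver, none of these lists had a member past the threshold for BPA against control, with all libraries or without control 902. The 34 hydrolases had negative estimates for 29 genes (all genes 50.7% negative), with a median of -1.18, and without BPA 910 limma called 19, all lower. Over all genes that fit called 9.15% lower and 7.34% higher. LIPA, the acid lipase, measured 1773, 531, 578 and 791 in control and 477, 106, 67.4 and 129 in BPA livers (log2 difference -2.47, SE 0.61, adjusted p = 0.256). All BPA livers lay below all controls, 910 nearest to them, and the adjusted p was 0.00819 without 910 and 0.131 without 902. The 27 genes of the lysosomal membrane and sorting had a less negative median, -0.58, with 22 negative estimates, and 10 were called lower without 910. The 12 genes listed for pump assembly and regulation had a median of -0.08, with 7 negative and 5 positive estimates, and 2 were called lower without 910. The pump subunit genes in that list had log2 differences of -0.06 (TCIRG1, SE 0.30, adjusted p = 0.93) and -1.91 (RNASEK, SE 0.68, adjusted p = 0.256). The 3 lists of lysosomal genes outside the members thus did not have the same median.

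The 16 initiation genes had a median of 0.11 and the 16 genes of fusion with the lysosome 0.22, beside the 0.32 of the core. Without 910, 2 of each were called higher, and 1 and 2 lower, where 7.34% of all genes were called higher and 9.15% lower. PIK3C3, the catalytic lipid kinase, measured 464, 222, 291 and 241 and 283, 1761, 585 and 808 (log2 difference 1.25, SE 0.52, adjusted p = 0.265), with 918 highest and 910 among the controls, and its adjusted p was 0.0343 without 910. The 18 receptors had a median of -0.44 and the 29 nutrient sensing genes -0.19, and without 910 the receptors had 4 called lower and the nutrient sensing genes 7 lower and 1 higher. A list of cystatins and other protease inhibitors had 4 genes tested (CST3, CST6, SERPINB1 and SPINT1), all with negative estimates. Cystatin C (CST3) measured 7109.7, 1931, 1405 and 1793 and 1418, 225, 243 and 349 (log2 difference -2.58, SE 0.68, adjusted p = 0.256), where 902 was high and 910 overlapped the controls, and its adjusted p was 0.0113 without 910 and 0.131 without 902.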

How the data were processed

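RNA sequencing libraries from liver and vastus lateralis of 8 sheep were compared, 16 in all. Per the labels' protocols, RNA was ribosome-depleted before a low-input library kit was used. Trimmomatic, FastQC and DESeq2 1.24.0 are named in the submitters' processing notes. Aligner, counter, annotation, build and strandedness: not given in the sources used here, so genes with near copies or antisense partners are uncertain. In the authors' deposited table each gene has a normalized signal, which the values show to be whole read counts divided by 1 factor per library: at least 99.993% of values per library were whole multiples of 1 step within 0.1 read. Of its 28524 rows, 3425 were at 0 throughout, and no column was left unused.

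With limma 3.58.1 (R 4.3.3) and its intensity trend, log2(value + 1) was fitted within each tissue to the genes averaging 10 or more there, and p-values were adjusted by Benjamini-Hochberg over every gene fitted. The tissues, and the BPA effects between them, were compared in 1 fit of 4 groups, for genes averaging 10 or more over the 16 libraries or in both tissues, respectively. The pseudocount of 1 makes fold changes of low genes too small. Adjusted p-values are from limma unless another tool is named, and the threshold was 0.05. Recovered reads were tested with edgeR 4.0.16, which called 35 members between tissues and 0 in each other comparison, and with DESeq2 1.42.0, which called 196 genes in liver, 131 in muscle, 11412 between tissues and 148 for the difference of BPA effects. DESeq2 gave no adjusted p for 6 members in liver. Fits were tested on simulated data.

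Members and lists were chosen with earlier results of these data known. Named members were those past the threshold (up to 10 per direction by smallest p, filled to 5), members of 1 tissue, and outliers; a few others were named after their values were seen. From other lists, up to 3 genes per comparison were named. The results of 1 such list are not reported here. Same-numbered liver and muscle come from the same animal, per the labels. Its deviations from the group means correlated by -0.101 to 0.118 across genes, so the pairing rests on the labels. RefSeq names (53 of 54 members found, not CTSV) served for names and neighbours only. No sequences or gene lengths were used. Other alternatives were pseudocounts, filters, scalings, weights, depth class and leaving out each library; fits within control or BPA animals were added after seeing the data.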

Additional observations from a re-analysis of the deposited data

Results flagged for a closer look

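Of 209 pairs of a member and a group of 4 libraries, 22 had 1 library whose gap to the nearest of the others was too large a share of the group's range by Dixon's 95% critical value. Chance flags about 1 in 20 groups, 10.5 here, so a single flag carries little weight. Control liver 902 had 9 of them: ATP6V1A (1033), ATP6V1B2 (637) and ATP6V1H (388) lay above the other controls, and LAMP1 (2305), CTSV (562), CTSF (516), ATG13 (516), ATG7 (320.3) and ATP6V0B (299.6) below. BPA liver 910 had 5, all above the other BPA livers: CTSB (3446), CTSF (1726), ATP6V0B (697), ATP6V0E1 (365) and ATG12 (342). BPA liver 918 was at 0 for ATP6V0D2, and control liver 928 was low for ATG4B (264). In muscle, BPA 918 was high for ATP6V1A (254) and low for CTSH (134) and CTSW (81.3). Muscle controls 902, 924 and 928 were low for ATP6V1H (179), ATP6V1A (164) and ATG3 (213).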

How the results depend on the processing

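The liver count of 0 members called became 39 with array weights, 21 with all 4 groups in 1 fit, and ranged from 0 to 20 when each library was left out (20 without BPA 910). The difference of BPA effects, 0 members called, gave 37 with array weights, 1 with DESeq2 and 0 to 20 when each animal was left out. In muscle, array weights called 1 member in place of 0, and the core minus lysosomal median went from 0.04 to 0.093. Between tissues that median difference was -0.62. It was -1.19 in control and 0.073 in BPA animals, -0.25 with a mean of at least 50 and -0.30 with array weights. In the paired fit, with the animal as a replicate block, 35 in place of 37 members passed between tissues and 0 for the difference of BPA effects. The cause of these changes was not tested. In liver the core minus lysosomal difference of 1.47 lay between 1.25 and 1.87 when each library was left out. It was 1.10 with the term for depth class. Among the members named by the rule, counting each member under each alternative, 23 results in liver, 1 in muscle and 16 for the difference of effects passed, with no change of sign. Of the 37 members called between tissues 21 lost the call under at least 1 alternative, 14 of them within control or BPA animals alone and nowhere else. edgeR ended the calls of ATG4B, ATP6V0D1 and ATP6AP1, DESeq2 that of ATP6V0D1, and no filter on low values those of ATG3 and LAMP3. ATP6AP1 changed sign, from -0.91 to 0.12 in control animals. Liver libraries went down to 4.39 M reads (units of 1e6), a term for depth class also gave 0 calls there, and what part depth has in that count was not tested further.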
